A study of Homo sapiens with 66 samples.

Results

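The E2F transcription factors and the retinoblastoma-like pocket proteins were followed at the mRNA level in A375, a line grown from a human melanoma that carries mutant BRAF, under inhibition of BRAF, loss of individual Mediator subunits, forced expression of SOX10 and loss of HDAC3. The 10 genes were taken by symbol (E2F1, E2F2, E2F3, E2F4, E2F5, E2F7, E2F8, RB1, RBL1 and RBL2), each matched 1 Ensembl ID of the 58721 in each count table, and all 10 passed the filter on low counts in each of the 3 tables. Each of the 22 groups has 3 libraries, 66 in all, and the 3 experiments they belong to were fitted on their own. The Mediator experiment (42 libraries) used a control guide labelled GFPsg and a pair of guides for each of MED12, MED19 and MED23, and cells received DMSO or 1 µM vemurafenib, which inhibits mutant BRAF, for 24 h. In the SOX10 experiment (12 libraries), cells with the GFP guide or with guide 1 against MED23 carried an empty vector or overexpressed SOX10. The HDAC3 experiment (12 libraries) set control cells beside knockouts of HDAC3, of MED23 and of both genes, and its labels do not name the guides. No drug is named in the labels of the last 2 experiments. The labels do not say whether knockout cells were clones or mixed populations, nor whether replicates were separate cultures, so each p-value measures only the spread between these libraries, which may be technical.

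E2F proteins bind DNA with a DP partner and set the transcription of genes for DNA replication and cell division. E2F1, E2F2 and E2F3 are known as activators, E2F4 and E2F5 mostly as repressors that act with pocket proteins, and E2F7 and E2F8 as atypical repressors that bind without a DP partner or a pocket protein. The pocket proteins pRB, p107 (RBL1) and p130 (RBL2) hold E2F proteins until cyclin-dependent kinases phosphorylate them, and p130 joins the MuvB core in the DREAM complex of resting cells. In melanoma cells, BRAF signalling through ERK raises cyclin D1, which drives this phosphorylation. Mediator links transcription factors to RNA polymerase II: MED12 belongs to its kinase module, MED19 to the middle module and MED23 to the tail.

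Library totals ranged from 65.9 to 211.8 M counts (Mediator), from 24.9 to 30.8 M (SOX10) and from 58.8 to 106.2 M (HDAC3). Over guides, treatments and experiments, target mRNA stood at 18.3% to 28.7% of the control level for MED12, 45.8% to 54.6% for MED19 and 42.9% to 53.2% for MED23. HDAC3 stood at 51.0% in HDAC3 knockout cells and at 60.2% in the double knockout, and overexpression put SOX10 mRNA at 114% of the empty-vector level in control cells and at 174% in MED23 knockout cells. Whether vector reads entered the SOX10 count was not tested, and mRNA does not measure the protein that a guide removes. Of 7 melanocyte lineage markers, SOX10 and MITF were present in every library (at least 66.2 and 39.8 CPM), whereas TYR, MLANA and PMEL did not exceed 0.401, 2.22 and 8.02 CPM in any. DCT (0 to 863 CPM) and S100B (4.33 to 158 CPM) ranged widely over the libraries. No marker of 9 for epithelial, blood, endothelial or fibroblast cells exceeded 6.85 CPM.

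The promoters of E2F1, E2F2, E2F3 and RBL1 are shown because E2F-type motifs lie close to their start, the farthest at -57, and because these 4 genes fell with vemurafenib. The stretches come from RefSeq (GRCh38.p14), run 5′ to 3′ on the gene's strand from 110 bases before the annotated start to the base before it, and capitals mark matches on either strand to TTTCGCG or to one of its variants, which were TTTGGCG, then TTTCCCG, and lastly TTTGCCG. The last bases of the E2F1 stretch lie inside the gene as GENCODE gives it.
E2F1, chr20:33686386-33686495, minus strand: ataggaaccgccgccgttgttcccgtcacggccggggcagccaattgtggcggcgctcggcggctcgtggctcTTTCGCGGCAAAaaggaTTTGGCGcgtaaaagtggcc
E2F2, chr1:23531234-23531343, minus strand: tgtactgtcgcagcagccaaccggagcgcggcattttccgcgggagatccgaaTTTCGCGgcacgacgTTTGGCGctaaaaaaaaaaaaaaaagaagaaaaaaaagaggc
E2F3, chr6:20401769-20401878, plus strand: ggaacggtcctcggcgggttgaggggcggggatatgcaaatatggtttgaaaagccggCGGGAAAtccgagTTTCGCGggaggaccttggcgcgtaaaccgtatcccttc
RBL1, chr20:37095998-37096107, minus strand: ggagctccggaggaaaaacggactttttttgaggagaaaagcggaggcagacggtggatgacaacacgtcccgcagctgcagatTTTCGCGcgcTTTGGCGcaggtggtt

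The E2F1 stretch held 3 matches, of which TTTCGCG at -37 overlaps a minus-strand TTTGCCG at -32, and E2F2, E2F3 and RBL1 held 2 each. In windows from 250 bases before to 50 after the start, E2F4 and E2F7 had 0 matches. So did both RBL2 windows, the second E2F3 window and the RB1 window, all of which lie wholly inside the gene as GENCODE gives it. The starts of RB1 and RBL2 as GENCODE gives them were therefore not searched. E2F5 and E2F8 had no window in the table. Of 35114 windows of this length in the genome, 8.67% held at least 1 match and 0.681% at least 2. A match describes letters only.

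In control cells in DMSO the members spanned a wide range of levels. Set per length of exon, as counts per M and kb, E2F4 was highest at 41.2 ± 1.67 (SD, n = 3), followed by RB1 at 29.7 ± 0.647, E2F1 at 16.0 ± 0.531 and E2F3 at 13.5 ± 0.257. RBL2 (9.35 ± 0.145) and RBL1 (9.25 ± 0.133) did not differ beyond their spread. E2F7 stood at 7.93 ± 0.222, E2F8 at 3.28 ± 0.28 and E2F2 at 3.07 ± 0.176, the last 2 within their spread of each other, and E2F5 was lowest at 1.87 ± 0.0527. With vemurafenib the order changed: RB1 (30.1 ± 0.297) and E2F4 (28.7 ± 0.241) led, RBL2 came next at 13.9 ± 0.0809, and E2F2 was lowest at 0.148 ± 0.018.

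Vemurafenib lowered E2F mRNA of every class in control cells, most of all that of the activators E2F1 and E2F2, lowered RBL1 and raised RBL2, while RB1 did not pass the test. CPM are counts per M of the scaled library. Of the 10 members, 9 were called at an adjusted p under 0.05 (edgeR's quasi-likelihood test, Benjamini-Hochberg over all genes), 8 lower and 1 higher. The drug changed much of the transcriptome: 66.2% of 27453 genes were called, 30.3% lower and 35.8% higher. At 2-fold or more, 7 members were called, and 29.7% of genes. The median of the members was -1.31 on the log2 scale, beside 0.11 for all genes.

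E2F1 (ENSG00000101412, chr20:33675683-33686404), an activator of S-phase genes, stood at 38.5, 40.9 and 40.6 CPM in the 3 DMSO libraries and at 2.24, 1.96 and 2.20 CPM in the 3 vemurafenib libraries. That is 18.7-fold lower, or -4.22 ± 0.082 in log2 fold change (± SE, adjusted p = 1.9e-40). E2F2 (ENSG00000007968, chr1:23506430-23531220) went from 16.3, 17.8 and 16.1 CPM to 0.843, 0.694 and 0.880 CPM, a 20.6-fold difference (-4.37 ± 0.096, adjusted p = 5.1e-38). The treated libraries of both genes lay far below each DMSO library, with no overlap. E2F3 (ENSG00000112242, chr6:20401906-20493715), the third activator, fell less, from between 68.9 and 71.3 CPM to between 33.0 and 34.5 CPM (-1.04 ± 0.033, adjusted p = 1.7e-31).

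E2F4 (ENSG00000205250, chr16:67192169-67198918), the highest member per kb in DMSO, fell from between 141.8 and 153.7 CPM to between 101.9 and 103.6 CPM (-0.52 ± 0.031, adjusted p = 1.8e-20). E2F5 (ENSG00000133740, chr8:85177225-85217158), its scarce relative, went from between 10.9 and 11.4 CPM to 6.09, 4.83 and 5.32 CPM (-1.03 ± 0.071, adjusted p = 6e-18). Neither gene's groups overlapped. E2F7 (ENSG00000165891, chr12:77021247-77065580) went from between 49.1 and 51.6 CPM to between 9.89 and 10.6 CPM, and E2F8 (ENSG00000129173, chr11:19224063-19241620) from between 12.5 and 14.8 CPM to between 2.55 and 3.23 CPM. No library of these atypical repressors overlapped between groups, and the log2 fold changes were close (-2.27 ± 0.046, adjusted p = 9.6e-40, and -2.26 ± 0.11, adjusted p = 2.2e-24).

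The pocket proteins went 3 ways. RBL1 (ENSG00000080839, chr20:36996349-37095995), itself known as an E2F target, fell from 54.2, 55.6 and 55.5 CPM to 18.9, 18.7 and 17.5 CPM (-1.59 ± 0.045, adjusted p = 1.3e-33). RBL2 (ENSG00000103479, chr16:53433977-53491649), which encodes the pocket protein of resting cells, rose from 67.3, 68.8 and 69.3 CPM to 102.5, 101.5 and 101.4 CPM (0.57 ± 0.028, adjusted p = 2e-23). RB1 (ENSG00000139687, chr13:48303726-48599436) stood at 191.6, 187.3 and 195.7 CPM in DMSO and at 195.2, 191.9 and 195.3 CPM with the drug, and these libraries overlapped (0.02 ± 0.028, adjusted p = 0.55). RBL2 shares 610 bp (8.33%) of its exons with AKTIP and 721 bp (9.85%) with the transcript AC007342.6, both on the opposite strand, and AKTIP gave -0.00526 ± 0.052 (adjusted p = 0.94) with the drug in control cells. In MED12, MED19 and MED23 knockout cells AKTIP rose with the drug, as RBL2 did (0.286 ± 0.036, 0.22 ± 0.037 and 0.171 ± 0.037). E2F5 shares exon sequence with RBIS, which gave -0.144 ± 0.05 (adjusted p = 0.0099) in control cells. The plot of levels by guide and treatment shows these groups beside the knockouts. In bulk RNA, fewer cells of a type and less RNA per cell cannot be told apart.

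**Figure D1:**
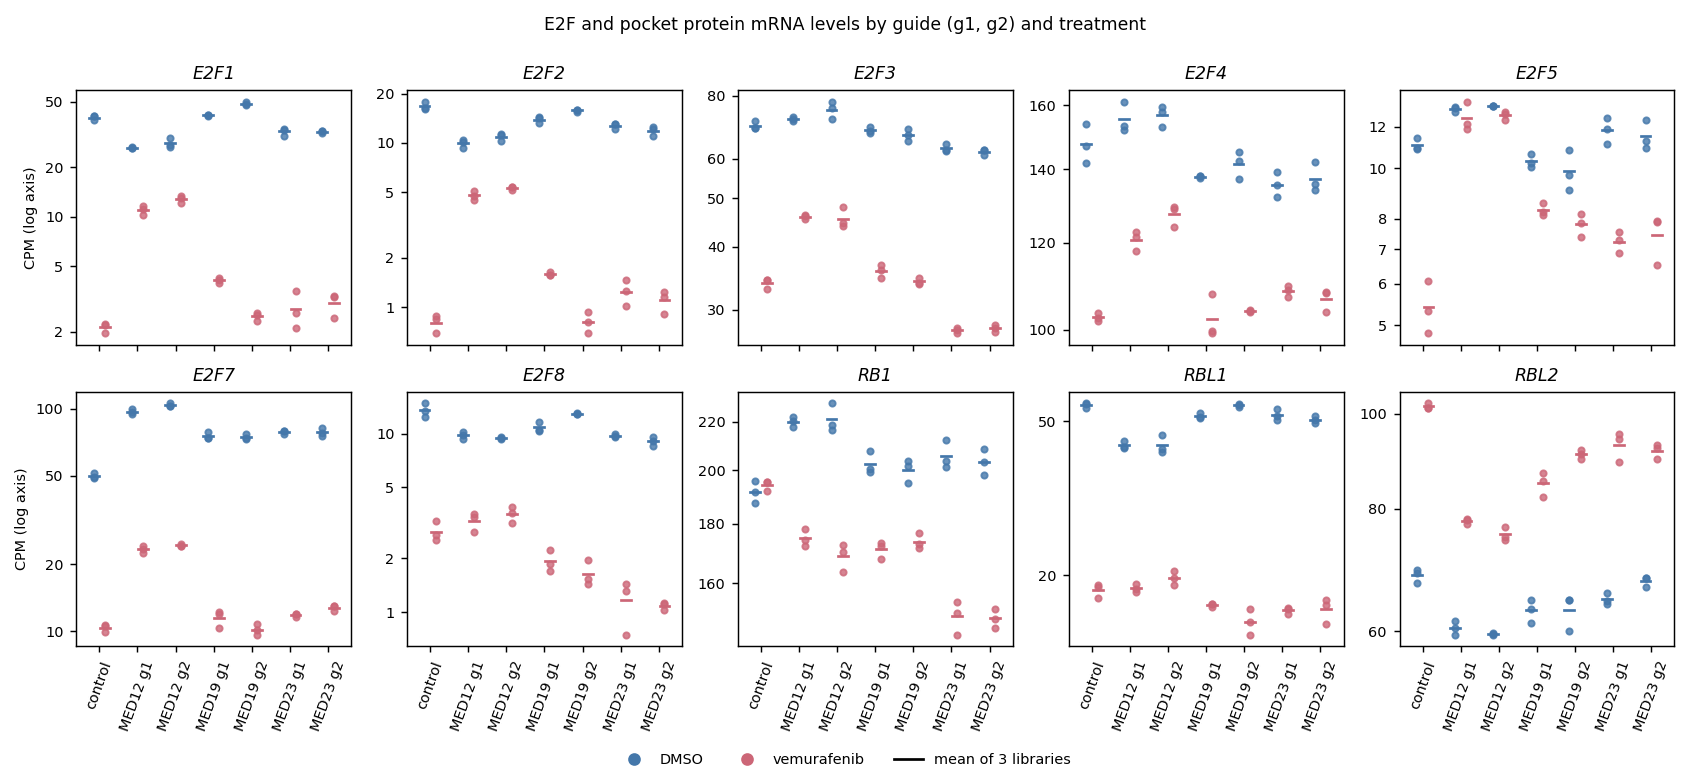
Levels of the 10 members in the Mediator experiment, in CPM on a log axis, by control or knockout guide (g1 and g2 are the 2 guides of a subunit); points are libraries, blue in DMSO and red with vemurafenib, and lines are means of 3 libraries. E2F1 stood at 1.96 to 2.24 CPM in treated control cells and at 10.2 to 13.3 CPM in treated MED12 knockout cells, whereas RBL2 is the member whose treated points lie above its DMSO points.

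The rest of the pathway was read from lists chosen by function, with earlier results of these data known, so it is given as a description. All 20 G1/S genes known as E2F targets fell with the drug (median -2.27), led by RRM2, a subunit of ribonucleotide reductase (-4.71 ± 0.054), the phosphatase gene CDC25A (-3.95 ± 0.055) and the cyclin gene CCNA2 (-3.44 ± 0.045). All 12 G2/M genes known as targets of DREAM fell as well (median -2.99). Of the 6 MuvB and B-MYB genes, 5 fell and 1 rose, and MYBL2, which encodes B-MYB, changed most (-3.20 ± 0.043). Among 11 tested regulators upstream of the pocket proteins, 8 fell and 3 rose: CCND1 (cyclin D1) fell by 3.77 ± 0.032, CDK6 by 2.21 ± 0.035 and CCNE2 by 2.51 ± 0.069. The 3 that rose were the inhibitor genes CDKN2C (1.05 ± 0.03), CDKN1A (0.72 ± 0.032) and CDKN1B (0.13 ± 0.031). Of the partners, TFDP1 fell (-1.18 ± 0.031) together with E2F6 (-0.73 ± 0.046), and TFDP2 rose (0.38 ± 0.032). The median of all genes was 0.11. Of the 8 tested markers of other cell types 4 rose and 2 fell, their summed level over all 9 going from 4.97 to 9.07 CPM with CDH1 and CD3E at 0 in some libraries. All 7 melanocyte lineage markers rose, from a summed 900 to 2150 CPM. The part of either list in the results was not tested.

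Genes with the E2F-type motif near the start are given beside all genes with a window, as a description. The median log2 fold change with vemurafenib was 0.07 over 14750 tested genes with a window, -0.05 over the 2111 with a match and -0.20 over the 183 with at least 2 matches. The share called lower was 37.4%, 45.8% and 54.6% in that order. E2F1, E2F2, E2F3 and RBL1 belong to the group with at least 2 matches. These members changed by -4.22, -4.37, -1.04 and -1.59 in that order. E2F7 and E2F4, which have no match in their windows, changed by -2.27 and -0.52. RB1 and RBL2 gave 0.02 and 0.57. Their windows held no match but lie inside the gene, so the starts that GENCODE gives for them were not searched. The part of the motif in these values was not tested.

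Loss of MED12 kept E2F1 and E2F2 mRNA well above the control under vemurafenib, although both were below control in DMSO. In DMSO all 10 members were called, 5 higher and 5 lower, where 54.9% of genes were (27.9% higher, 27.0% lower). E2F7 alone reached 2-fold, as did 15.6% of genes. E2F7 stood at 94.6 to 105.9 CPM over the 6 MED12 knockout libraries against 49.1 to 51.6 CPM in control (1.01 ± 0.036, adjusted p = 6.2e-29). E2F8, the other atypical member, went the other way (9.33 to 10.2 CPM against 12.5 to 14.8, -0.49 ± 0.081, adjusted p = 8.6e-07). E2F1 (-0.56 ± 0.053), E2F2 (-0.68 ± 0.061), RBL1 (-0.35 ± 0.036) and RBL2 (-0.19 ± 0.025) fell, and RB1 (0.20 ± 0.024) and E2F5 (0.24 ± 0.058) rose. E2F3 and E2F4 differed by 0.07 and 0.08: the E2F3 call was lost without GFPsg_DMSO replicate 2 (0.06, adjusted p = 0.099) or 3 (0.07, 0.084) or MED12sg2_DMSO replicate 3 (0.06, 0.071), and that of E2F4 without GFPsg_DMSO replicate 1 (0.05, 0.14). Both calls were also lost with DESeq2 size factors, with the DESeq2 Wald test and with no low-count filter. The E2F3 call was further lost with guide 1 alone and with only the groups compared. Of the 20 G1/S genes, 17 fell and 1 rose in DMSO (median -0.43, all genes 0.00). Of the 7 melanocyte lineage markers 5 fell, their sum being 174 and 209 CPM with the guides against 900 CPM, and of 8 tested markers of other cells 6 rose, with sums of 9.93 and 10.3 CPM against 4.97 CPM. Neither list's part in these values was tested.

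Under vemurafenib the MED12 knockout was higher than control in 7 members and lower in 2, with 62.2% of genes called (32.5% higher, 29.6% lower), and 4 members reached 2-fold, beside 21.0% of genes. E2F1 stood at 10.2, 11.6 and 11.1 CPM with guide 1 and at 13.0, 12.1 and 13.3 CPM with guide 2, against 1.96 to 2.24 CPM in treated control cells, a 5.56-fold difference (2.47 ± 0.078, adjusted p = 2e-31). E2F2 was 6.24-fold higher, at 4.48 to 5.12 CPM with guide 1 and 5.17 to 5.43 CPM with guide 2 (2.64 ± 0.093, adjusted p = 2.4e-29). Both genes thus lay above treated control cells with either guide and below MED12 knockout cells in DMSO. E2F5 was 2.32-fold higher (1.21 ± 0.064) and E2F7 2.3-fold (1.20 ± 0.042), while E2F3 (0.43 ± 0.029) and E2F4 (0.27 ± 0.027) rose by less. RB1 (-0.18 ± 0.024) and RBL2 (-0.41 ± 0.024) fell, and RBL1 did not pass (0.06 ± 0.04, adjusted p = 0.2). The E2F8 call (0.27 ± 0.098, adjusted p = 0.014) was lost without GFPsg_Vemu replicate 2 (0.25, 0.055) or 3 (0.21, 0.12), and with guide 1 alone.

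Whether the drug's effect itself differed between MED12 knockout and control cells was tested as an interaction, and all 10 members passed, 8 higher and 2 lower, where 49.0% of genes did (24.9% and 24.2%). Of these, 2 were 2-fold or more, beside 14.7% of genes. The drug lowered E2F1 18.7-fold in control cells and 2.28-fold in MED12 knockout cells (interaction 3.03 ± 0.094, adjusted p = 3.8e-31), and E2F2 20.6-fold and 2.06-fold (3.32 ± 0.11, adjusted p = 8.8e-30). For E2F5 no drug effect passed the test in MED12 knockout cells (-0.06 ± 0.047, adjusted p = 0.3), with libraries of 12.8 to 13.2 CPM in DMSO and 11.9 to 13.4 CPM with drug, and the interaction was 0.98 ± 0.085 (adjusted p = 4.7e-14). The fall of E2F7 was nearly as large as in control cells (-2.07 ± 0.03; interaction 0.20 ± 0.054, adjusted p = 0.0017). E2F8 (0.76 ± 0.13), RBL1 (0.41 ± 0.054), E2F3 (0.36 ± 0.04) and E2F4 (0.19 ± 0.038) had smaller falls than in control cells, and RBL2 a smaller rise (0.35 ± 0.02; interaction -0.22 ± 0.035). RB1, which did not pass in control cells, fell with the drug in MED12 knockout cells (-0.36 ± 0.019; interaction -0.38 ± 0.034, adjusted p = 9.1e-14). In all, 9 members were called for the drug in MED12 knockout cells, 8 lower and 1 higher, beside 63.2% of genes (30.8% and 32.4%), and 5 at 2-fold, beside 15.7%.

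**Figure D2:**
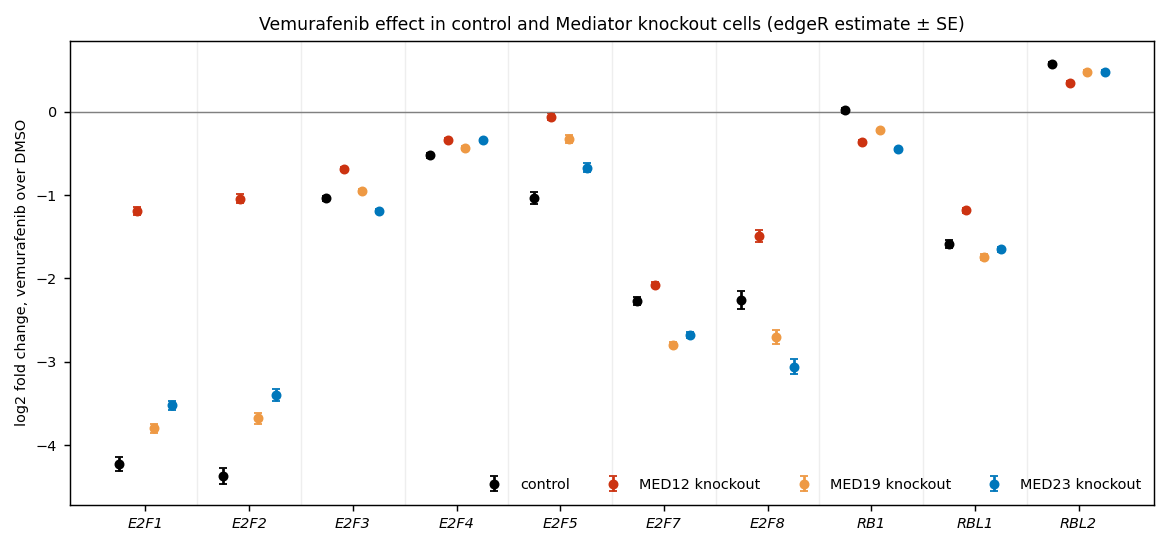
Log2 fold change of vemurafenib over DMSO for each member in control cells and in MED12, MED19 and MED23 knockout cells; points are edgeR estimates and bars ± SE, each group has 3 libraries, and the 2 guides of a subunit have equal weight. For E2F1 and E2F2 the MED12 points (-1.19 and -1.04) lie far from the control points (-4.22 and -4.37), and RBL2 is above 0 in all 4 backgrounds.

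The same interaction was positive for 19 of the 20 G1/S genes (median 1.32, all genes -0.04), led by CDC25A (2.50 ± 0.063), RRM2 (2.46 ± 0.061) and TK1 (1.88 ± 0.056). All 12 G2/M genes passed in the positive direction (median 1.62). Upstream, 8 of 11 were higher and 2 lower, with CCND1 at 2.47 ± 0.036 and CDK6 at 2.11 ± 0.042. CDKN2C (-0.79 ± 0.037) and CDKN1A (-0.63 ± 0.039), both genes of kinase inhibitors, were the 2 lower. MYBL2 passed at 2.14 ± 0.049. Melanocyte lineage markers moved too: all 7 were lower in MED12 knockout than in control cells under the drug, their summed level being 157 to 189 CPM over both guides against 2150 CPM. Markers of other cells summed to 10.9 and 11.0 CPM in treated MED12 knockout cells against 9.07 CPM, 5 of 8 tested being higher and 1 lower. The part of either list in the E2F values was not tested.

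MED19 and MED23 loss left most of the drug's fall in E2F1 and E2F2. In MED19 knockout cells all 10 members were called for the drug (70.3% of genes), 9 lower and 1 higher (32.6% and 37.7%) and 5 at 2-fold (25.6%), with E2F1 at -3.80 ± 0.055 and E2F2 at -3.68 ± 0.066. In MED23 knockout cells all 10 were also called (69.5% of genes), 9 lower and 1 higher (32.1% and 37.4%) and 6 at 2-fold (25.6%), with E2F1 at -3.52 ± 0.059 and E2F2 at -3.40 ± 0.07. RBL2 rose by 0.48 ± 0.02 and 0.48 ± 0.021 in these cells. RB1 fell in both (-0.22 ± 0.02 and -0.45 ± 0.02). E2F7 fell by more than in control cells in both (-2.80 ± 0.032 and -2.68 ± 0.033), as did E2F8 (-2.70 ± 0.08 and -3.06 ± 0.092). For E2F8 with MED19 lost, the difference from control (interaction -0.44) was not called with guide 1 alone or without GFPsg_Vemu replicate 1. The drug comparisons in MED19 and MED23 knockout cells share no library with each other, and both are set beside the same control libraries.

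The 2 guides against MED19 did not give the same E2F1 and E2F2 values under the drug. With guide 1, E2F1 stood at 4.26, 3.96 and 4.14 CPM, 0.95 above treated control cells in log2 (adjusted p = 2.3e-12), and with guide 2 at 2.54, 2.33 and 2.59 CPM (0.22, adjusted p = 0.094). E2F2 stood at 1.57, 1.56 and 1.64 CPM with guide 1 (0.97, adjusted p = 4.8e-10) and at 0.933, 0.812 and 0.698 CPM with guide 2 (0.06, adjusted p = 0.8), where it overlapped control. Over both guides these values were 0.59 ± 0.087 for E2F1 and 0.51 ± 0.11 for E2F2. E2F5 rose with either guide (0.57 ± 0.065 over both), E2F8 fell with either (-0.64 ± 0.1), and RB1 (-0.17 ± 0.024), RBL1 (-0.20 ± 0.04) and RBL2 (-0.21 ± 0.024) fell. E2F7 did not pass (0.07 ± 0.043, adjusted p = 0.23), nor did E2F3 and E2F4. In all, 7 of the 10 were called under the drug (43.7% of genes), 3 higher and 4 lower (23.1% and 20.7%), and 0 at 2-fold (8.11%). Melanocyte lineage markers moved with MED19 loss as well: 6 of 7 fell under the drug (586 and 855 CPM summed against 2150 CPM) and 4 of 7 in DMSO (477 and 614 against 900 CPM). Markers of other cells summed to 7.79 and 8.18 CPM against 9.07 CPM under the drug, 2 of 8 tested being higher and 2 lower, and to 4.93 and 5.47 CPM against 4.97 CPM in DMSO, 2 higher and 1 lower, and the part of either list was not tested.

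In DMSO, MED19 loss called 6 members (40.6% of genes), 3 higher and 3 lower (20.4% and 20.2%), and 0 at 2-fold (6.30%). E2F7 changed most and rose from between 49.1 and 51.6 CPM to between 73.5 and 78.7 CPM (0.59 ± 0.036, adjusted p = 2.1e-19). RBL2 fell by 0.12 ± 0.025 (adjusted p = 8.5e-05). The calls of E2F1 (0.16), E2F2 (-0.18), E2F4 (-0.08) and RB1 (0.07) were each lost with 1 of the guides alone. Without GFPsg_DMSO replicate 2, E2F2 (-0.13, adjusted p = 0.17), E2F4 (-0.05, 0.23) and RB1 (0.05, 0.13) were lost, leaving 3 called in all, and E2F4 also without MED19sg2_DMSO replicate 2 (-0.07, 0.051). E2F1 was lost without GFPsg_DMSO replicate 1 (0.14, 0.088). E2F5 (-0.13 ± 0.059, adjusted p = 0.063) and E2F8 (-0.19 ± 0.082, adjusted p = 0.058) missed the threshold. The interaction with the drug called 8 members (32.6% of genes), 3 higher and 5 lower (17.4% and 15.2%) and 0 at 2-fold (5.13%), of which E2F5 (0.70 ± 0.087), E2F7 (-0.52 ± 0.055) and RB1 (-0.24 ± 0.034) held with each guide. Without GFPsg_Vemu replicate 1, 5 members were called in that interaction, and E2F8 (-0.44) was lost (-0.34, adjusted p = 0.074).

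MED23 loss gave a recurring pair of changes, E2F7 higher and E2F8 lower, in all 3 experiments, which have separate control libraries. In the Mediator experiment E2F7 stood at 76.8, 79.7 and 79.9 CPM with guide 1 and at 82.0, 75.4 and 77.8 CPM with guide 2, against 49.1 to 51.6 CPM in control (0.65 ± 0.036, adjusted p = 4e-21). E2F8 stood at 9.56 to 10.0 CPM with guide 1 and at 8.54 to 9.63 CPM with guide 2, against 12.5 to 14.8 CPM (-0.53 ± 0.081, adjusted p = 4.7e-07). Each knockout library was above each control library for E2F7 and below it for E2F8. In the SOX10 experiment, with empty vector, E2F7 went from 45.2 to 47.8 CPM in control to 66.7 to 71.4 CPM (0.56 ± 0.042, adjusted p = 3.5e-12), and E2F8 from 13.0 to 13.8 CPM to 7.42 to 8.46 CPM (-0.78 ± 0.084, adjusted p = 5.9e-09). In the HDAC3 experiment E2F7 went from 46.3 to 47.4 CPM to 68.9 to 69.5 CPM (0.56 ± 0.047, adjusted p = 3.3e-09), and E2F8 from 13.6 to 14.2 CPM to 7.31 to 8.71 CPM (-0.77 ± 0.087, adjusted p = 3.5e-07). The ratio of E2F7 to E2F8 per kb of exon was formed after the values were seen and is given as a description. Over the DMSO groups, the empty-vector groups and the HDAC3 experiment, it lay between 2.14 and 2.58 in control libraries. In the libraries of these sets with MED23 alone knocked out it lay between 5.14 and 6.31. The ratio was raised with other subunits lost as well: it lay between 6.09 and 7.24 in MED12 and between 3.67 and 4.69 in MED19 knockout libraries in DMSO. Under vemurafenib it lay between 2.16 and 2.56 in control, between 4.07 and 5.26 with MED12 lost, between 3.41 and 4.89 with MED19 lost and between 5.44 and 10.3 with MED23 lost.

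**Figure D3:**
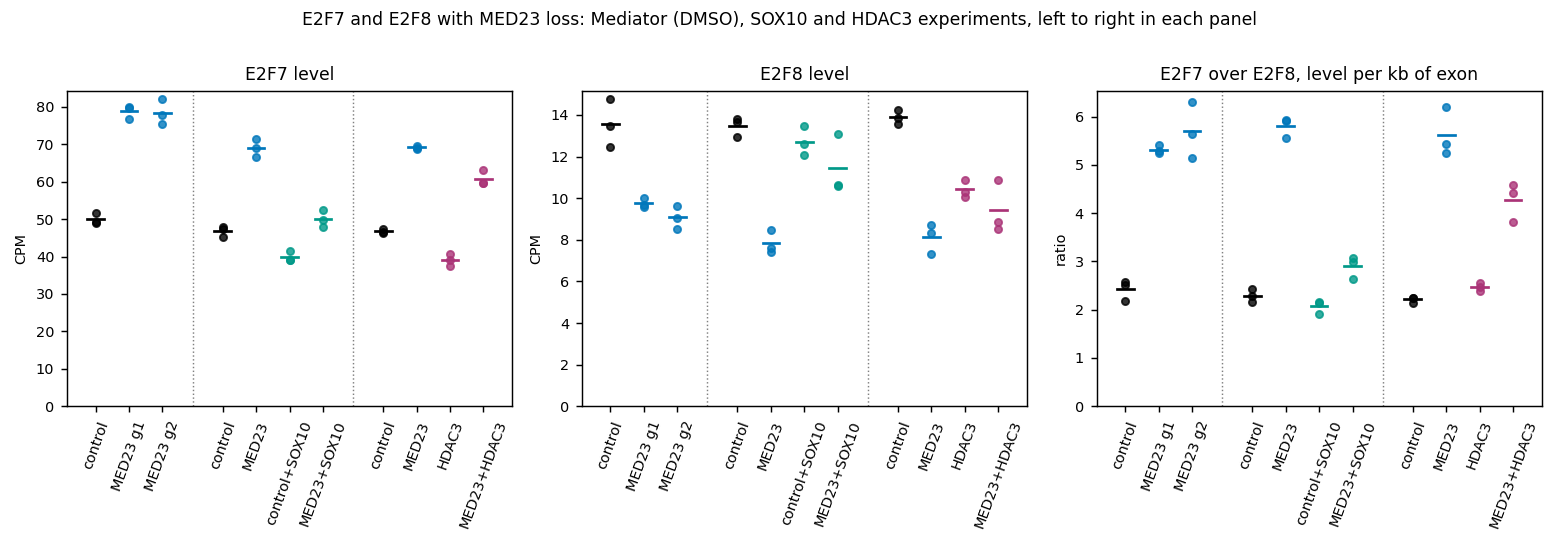
E2F7 and E2F8 levels in CPM and the ratio of E2F7 to E2F8 per kb of exon, by group, in the Mediator (DMSO groups), SOX10 and HDAC3 experiments; points are libraries and lines means of 3. MED23 knockout libraries lie above their controls for E2F7 and below them for E2F8 in all 3, and with SOX10 overexpression the ratio in MED23 knockout cells was 2.63 to 3.08.

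E2F1, E2F2 and RBL1 were also lower with MED23 loss in all 3 experiments. In DMSO 8 were called (36.9% of genes), 2 higher and 6 lower (18.4% and 18.5%), and 0 at 2-fold (6.79%). E2F1 fell by 0.28 ± 0.053, E2F2 by 0.44 ± 0.061 and E2F3 by 0.16 ± 0.027, and E2F4 by 0.11 ± 0.027, while RB1 rose by 0.09 ± 0.024. RBL1 (-0.11 ± 0.036) was lost without GFPsg_DMSO replicate 2 (-0.10, adjusted p = 0.069) or 3 (-0.10, 0.07), and with guide 1 alone. E2F5 (0.07 ± 0.058, adjusted p = 0.37) and RBL2 (-0.05 ± 0.025, adjusted p = 0.11) did not pass. In the SOX10 experiment 9 were called (43.4% of genes), 3 higher and 6 lower (21.2% and 22.3%) and 0 at 2-fold (5.51%), with E2F1 at -0.36 ± 0.045, E2F2 at -0.61 ± 0.061, E2F5 at 0.27 ± 0.071 and RBL1 at -0.22 ± 0.039. In the HDAC3 experiment 7 were called (24.3% of genes), 2 higher and 5 lower (12.3% and 12.0%) and 0 at 2-fold (4.76%), with E2F1 at -0.47 ± 0.059, E2F2 at -0.67 ± 0.089 and RBL1 at -0.24 ± 0.051. There E2F5 (0.15 ± 0.082, adjusted p = 0.2), E2F3 (-0.15 ± 0.053, adjusted p = 0.051) and RBL2 (0.03 ± 0.049, adjusted p = 0.76) did not pass.

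Some of the small MED23 calls were lost without single libraries. E2F3 with empty vector (-0.13) was lost without GFPsg_EV replicate 1 (-0.12, adjusted p = 0.061) or 3 (-0.12, 0.064) or MED23sg1_EV replicate 2 (-0.11, 0.08) or 3 (-0.13, 0.056). In the HDAC3 experiment RB1 (0.13) was lost without any 1 of the 6 libraries, and E2F4 (-0.15) without Ctrl replicate 1 or 3 or MED23KO replicate 1 or 3. With empty vector, E2F4 (-0.14 ± 0.033) and RB1 (0.13 ± 0.033) stayed called without each of the 6 libraries in turn. Of the 20 G1/S genes, 17, 20 and 17 fell with MED23 loss in the 3 experiments (medians -0.17, -0.30 and -0.25), and none rose. Of the 12 G2/M genes, 5 rose and 0 fell in DMSO, 0 rose and 6 fell with empty vector, and 2 rose and 0 fell in the HDAC3 experiment (medians 0.06, -0.11 and 0.07). Markers of other cells summed to 8.00 and 8.01 CPM in the MED23 knockout groups in DMSO against 4.97 CPM in control, and the sums were 9.49 against 5.02 CPM and 8.40 against 4.92 CPM in the other experiments. Melanocyte lineage markers summed to 372 and 397 against 900, 337 against 648 and 315 against 571 CPM. By gene, 1 lineage marker rose and 4 fell of 7 tested in DMSO, 2 rose and 3 fell of 6 with empty vector, and 0 rose and 3 fell of 6 in the HDAC3 experiment. The part of either list was not tested.

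Under vemurafenib MED23 loss lowered E2F8 further and left E2F7 slightly above control. All 10 members were called (47.3% of genes), 5 in each direction (24.6% higher, 22.7% lower), and 1 at 2-fold (11.6%). E2F8 stood at 0.746, 1.44 and 1.32 CPM with guide 1 and at 1.03, 1.11 and 1.12 CPM with guide 2, against 2.55 to 3.23 CPM in treated control cells (-1.33 ± 0.12, adjusted p = 5.6e-14). The lowest of these rests on 55 counts. E2F1 (0.42 ± 0.092), E2F2 (0.53 ± 0.11), E2F5 (0.44 ± 0.066) and E2F7 (0.25 ± 0.044) were higher than in treated control cells. E2F1 overlapped control in 1 of the 6 libraries. E2F3 (-0.31 ± 0.03), RB1 (-0.38 ± 0.024), RBL1 (-0.17 ± 0.041) and RBL2 (-0.14 ± 0.025) were lower. The E2F4 call (0.07) was lost without any 1 of 7 of the 9 libraries. Of the 20 G1/S genes 15 were higher and 3 lower (median 0.36), and of the 12 G2/M genes 11 were higher and 0 lower (median 0.42). Melanocyte lineage markers summed to 555 and 486 CPM against 2150 CPM, 5 of 7 being lower and 0 higher. Markers of other cells summed to 11.0 and 10.4 CPM against 9.07 CPM, 4 of 8 tested being higher and 2 lower. The part of either marker list was not tested. In the interaction, 9 were called (34.8% of genes), 4 higher and 5 lower (18.5% and 16.2%) and 0 at 2-fold (6.35%). The drug's fall was smaller for E2F1 (0.70 ± 0.11), E2F2 (0.97 ± 0.13), E2F5 (0.36 ± 0.088) and E2F4 (0.18 ± 0.038), and larger for E2F8 (-0.80 ± 0.14), E2F7 (-0.41 ± 0.056) and E2F3 (-0.15 ± 0.041). RB1 passed at -0.47 ± 0.034, and RBL1 did not (-0.06 ± 0.055, adjusted p = 0.41).

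SOX10 overexpression moved E2F7 and E2F8 of MED23 knockout cells back toward the control level. E2F8 went from 7.62, 8.46 and 7.42 CPM with empty vector to 13.1, 10.6 and 10.6 CPM with SOX10 (0.54 ± 0.085, adjusted p = 5.5e-06). E2F7 went from 68.9, 71.4 and 66.7 CPM to 52.5, 48.0 and 49.8 CPM (-0.46 ± 0.042, adjusted p = 1.8e-10). Control cells with empty vector had 13.0 to 13.8 CPM of E2F8 and 45.2 to 47.8 CPM of E2F7, so the E2F7 libraries of MED23 knockout cells with SOX10 lay just above them. In MED23 knockout cells 6 members were called (41.9% of genes), 3 higher and 3 lower (21.2% and 20.7%) and 0 at 2-fold (5.42%), including E2F3 (0.32 ± 0.044), E2F2 (0.26 ± 0.063) and E2F4 (-0.14 ± 0.033). E2F1 did not pass (-0.09 ± 0.047, adjusted p = 0.13), and the E2F5 call (-0.17 ± 0.07, adjusted p = 0.046) was lost without any 1 of 5 of the 6 libraries. Of the 20 G1/S genes 16 rose and none fell (median 0.16), led by GINS2 (0.36 ± 0.042), TYMS (0.31 ± 0.05) and CDC25A (0.22 ± 0.037).

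In control cells the SOX10 vector called 4 members (22.6% of genes), 1 higher and 3 lower (11.6% and 11.0%), and 0 at 2-fold (2.38%). E2F1 fell by 0.20 ± 0.044 and E2F7 by 0.23 ± 0.045, while E2F8 (-0.09 ± 0.076, adjusted p = 0.49) and E2F2 (-0.09 ± 0.057, adjusted p = 0.33) did not pass. E2F3 (0.14) was lost without GFPsg_EV replicate 2 (0.13, adjusted p = 0.069) or GFPsg_SOX10OE replicate 1 (0.14, 0.062) or 2 (0.13, 0.068), and E2F4 (-0.09) without any 1 of 5 of the 6 libraries. Whether SOX10 acted differently in the 2 backgrounds was tested directly, and 5 members passed, 3 higher and 2 lower, where 14.7% of genes did (7.64% and 7.04%, and 1.55% at 2-fold, where 0 members were). They were E2F8 at 0.63 ± 0.11 (adjusted p = 0.00019), E2F2 at 0.35 ± 0.085, E2F7 at -0.23 ± 0.061, E2F3 at 0.18 ± 0.062 and RB1 at -0.15 ± 0.047. The calls of the last 2 were borderline, being lost without any 1 of 10 and of 8 of the 12 libraries, with the direction kept. E2F1 gave 0.12 ± 0.065 (adjusted p = 0.26). SOX10 mRNA was raised less in control than in knockout cells (114% and 174%), and the 7 melanocyte lineage markers, a list that holds SOX10 itself, went from a summed 337 to 566 CPM in knockout cells, 3 being higher and 2 lower of 6 tested. Of 5 tested markers of other cells 2 were higher and 3 lower, their summed level over all 9 going from 9.49 to 9.03 CPM. The part of either list was not tested.

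HDAC3 loss lowered E2F5 2.03-fold in control cells and 2.15-fold in MED23 knockout cells. E2F5 stood at 11.1, 12.6 and 12.7 CPM in control and at 5.53, 5.99 and 6.49 CPM in HDAC3 knockout cells (-1.02 ± 0.088, adjusted p = 2.8e-09). With MED23 lost it stood at 12.9, 12.8 and 14.9 CPM, and at 6.41, 6.39 and 6.05 CPM in the double knockout (-1.11 ± 0.088, adjusted p = 1.2e-09). Both sets of libraries were far apart, and no interaction passed (-0.09 ± 0.12, adjusted p = 0.7). E2F5 shares 969 bp (16.35%) of its exons with RBIS on the opposite strand, and the strand setting of the counting is not given. RBIS rose in both comparisons (0.30 ± 0.087 and 0.23 ± 0.088).

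**Figure D4:**
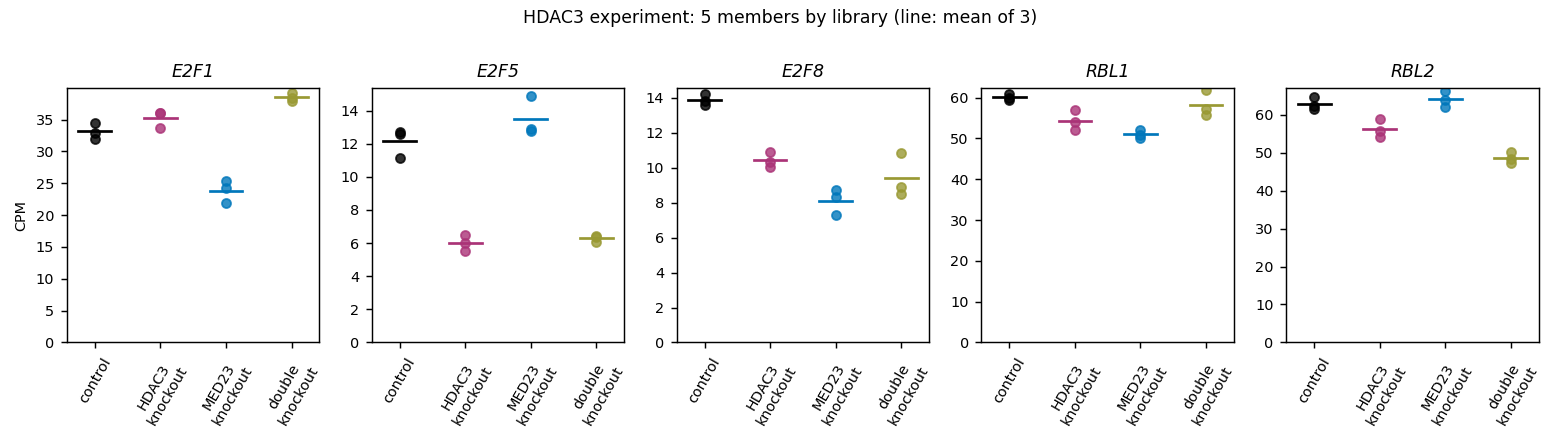
Levels in CPM of E2F1, E2F5, E2F8, RBL1 and RBL2 in the HDAC3 experiment, by group; points are libraries and lines means of 3. E2F5 lies at 5.53 to 6.49 CPM in both groups with the HDAC3 knockout and at 11.1 to 14.9 CPM in the other groups, and E2F1 is lowest in MED23 knockout cells.

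In control cells HDAC3 loss called 7 members, all lower (20.9% of genes were called lower, 21.2% higher and 42.1% in either direction), and 1 at 2-fold (8.19%). Besides E2F5 these were E2F8 (-0.41 ± 0.087), E2F7 (-0.26 ± 0.048), E2F2 (-0.26), E2F3 (-0.17), RBL2 (-0.16) and RBL1 (-0.15), and E2F1 did not pass (0.09 ± 0.059, adjusted p = 0.25). The last 4 called were borderline, each being lost without some single libraries, with the direction kept. Without Ctrl replicate 3, E2F2 (-0.26, adjusted p = 0.052), E2F3 (-0.15, 0.068) and RBL2 (-0.14, 0.054) were lost. Without HDAC3KO replicate 2, E2F2 (-0.24, 0.073), RBL1 (-0.12, 0.12) and RBL2 (-0.13, 0.063) were, leaving 4 members either way. RBL1 was also lost without Ctrl replicate 1 or 2 or HDAC3KO replicate 3, E2F2 without Ctrl replicate 1 or HDAC3KO replicate 3, and E2F3 without Ctrl replicate 2. Of the G1/S genes 18 of 20 fell (median -0.37), led by GINS2 (-0.62 ± 0.063), CDT1 (-0.56 ± 0.083) and MCM6 (-0.51 ± 0.046). CDKN1A, which encodes the kinase inhibitor p21, rose by 1.46 ± 0.046, CDK6 fell by 0.67 ± 0.051 and CDK2 rose by 0.61 ± 0.046. Melanocyte lineage markers summed to 994 CPM against 571 CPM and those of other cells to 4.95 against 4.92 CPM. Of the lineage markers 4 rose and 0 fell of 6 tested, and of the others 3 rose and 2 fell of 7, and the part of either list was not tested.

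In MED23 knockout cells the further loss of HDAC3 raised E2F1. E2F1 went from 25.4, 24.2 and 22.0 CPM to 39.1, 38.3 and 38.0 CPM (0.69 ± 0.06, adjusted p = 5e-09), above each control library (32.0 to 34.4 CPM). E2F2 (0.33 ± 0.092) and RBL1 (0.19 ± 0.051) rose, RBL2 (-0.40 ± 0.05) and E2F7 (-0.19 ± 0.048) fell, and 7 members were called in all (38.0% of genes), 3 higher and 4 lower (19.1% and 18.9%), and 1 at 2-fold (6.03%). Melanocyte lineage markers, SOX10 among them, went from a summed 315 to 530 CPM (3 of 6 tested higher, 1 lower) and markers of other cells from 8.40 to 7.52 CPM (2 of 7 higher, 2 lower), and the part of either list was not tested. E2F2 was lost without dKO replicate 2 (0.23, adjusted p = 0.075), and RB1 (-0.13) without MED23KO replicate 2 (-0.14, 0.054) or 3 (-0.10, 0.13) or dKO replicate 1 (-0.11, 0.12) or 2 (-0.10, 0.15). In this comparison all pairs of libraries with the same replicate number correlated above the cut-off of 0.1, and 2 of 3 matched their own number best. The calls above come from the fit without a block. With the number as a block E2F8 (0.21 ± 0.091, adjusted p = 0.068 without it) passed at an adjusted p of 0.044, and E2F3 (0.10 ± 0.054, 0.14 without it) at 0.049.

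The test of the difference between the 2 HDAC3 effects passed for 6 members (20.5% of genes), 5 higher and 1 lower (10.0% and 10.5%), and 0 at 2-fold (3.55%). They were E2F8 (0.63 ± 0.13, adjusted p = 0.00079), E2F1 (0.60 ± 0.084, adjusted p = 1.3e-05), E2F2 (0.58 ± 0.13), RBL1 (0.34 ± 0.072), E2F3 (0.28 ± 0.076) and RBL2 (-0.24 ± 0.07). RBL2 was lost without Ctrl replicate 2 (-0.22, adjusted p = 0.056) or MED23KO replicate 2 (-0.21, 0.063). E2F7 did not pass (0.07 ± 0.068, adjusted p = 0.52). All 20 G1/S genes passed in the positive direction (median 0.50, all genes 0.00), with GINS2 at 0.86 ± 0.088, TYMS at 0.63 ± 0.062 and TK1 at 0.59 ± 0.077. Upstream, CDK6 (1.02 ± 0.072), CCND1 (0.87 ± 0.053) and CCNE2 (0.83 ± 0.12) had the largest values of 5 higher and 4 lower.

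Against control cells the double knockout called 7 members (36.6% of genes), 2 higher and 5 lower (18.2% and 18.4%), and 0 at 2-fold (5.00%). E2F1 was higher (0.22 ± 0.059, adjusted p = 0.0059), as was E2F7 (0.38 ± 0.048). E2F5 (-0.95 ± 0.088), E2F8 (-0.56 ± 0.088), RBL2 (-0.37 ± 0.049), E2F2 (-0.34 ± 0.089) and E2F4 (-0.20 ± 0.05) were lower, and RBL1 did not pass (-0.05 ± 0.051, adjusted p = 0.53). AKTIP, which overlaps RBL2, gave 0.0294 ± 0.073 (adjusted p = 0.8) here. It fell with HDAC3 loss in control cells (-0.241 ± 0.074, adjusted p = 0.011), as RBL2 did, and gave -0.171 ± 0.073 (adjusted p = 0.07) in MED23 knockout cells. The share of RBL2 counts that the overlap contributes was not tested. Comparisons within the HDAC3 experiment share libraries, so their values are set side by side only.

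**Figure D5:**
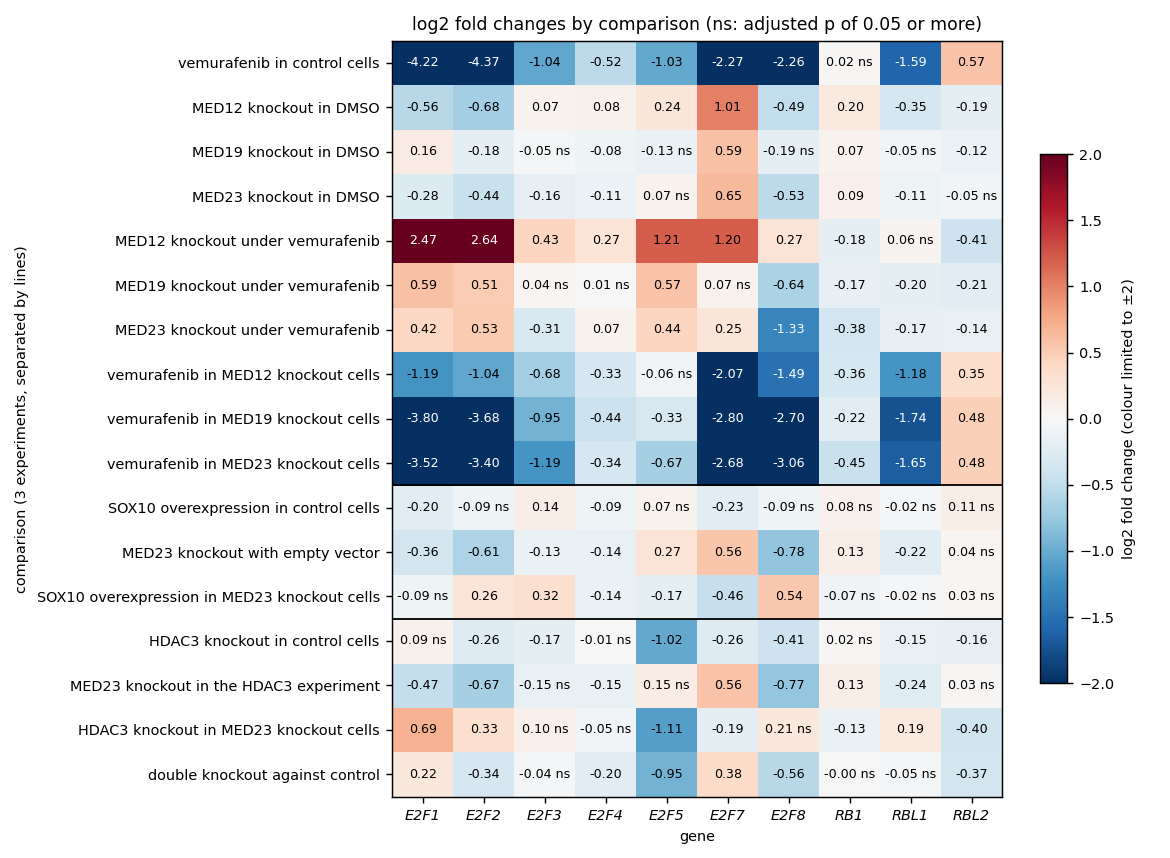
Log2 fold changes of the 10 members (columns) in the 17 comparisons without interactions (rows), red for higher and blue for lower, with colour limited to 2 in either direction and ns for an adjusted p of 0.05 or more. The vemurafenib rows hold the largest values (E2F2 at -4.37 in control cells). E2F7 is above 0 and E2F8 below 0 in each row that compares MED23 loss with its control in DMSO or with no drug named.

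Likeness of pattern was read over the 14 group means of the Mediator experiment as a description, since groups share guides and the drug contrast. Of 12444 genes, the pattern of E2F1 was most like that of E2F2 (Pearson r = 0.9974), then MCM10 (0.9952), CDC45 (0.9951), DTL (0.9949) and FAM111B (0.9947). That of RBL2 was most like SLC35E2B (0.9947), TSC2 (0.9912), SLC25A29 (0.9911), LHPP (0.9907) and TAFAZZIN (0.9901). Among the members, E2F7 and RBL2 had the most negative correlation (-0.973), and the correlation of E2F5 with the other E2F genes ranged from 0.656 (E2F8) to 0.818 (E2F4).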

How the data were processed

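Per the labels' protocols, libraries of A375 poly(A) RNA came from the KAPA Stranded mRNA-Seq kit. The values used are whole-number read counts per gene, deposited in 3 tables and made by the authors with bcl2fastq, HISAT2 (hg38) and HTSeq, per the submitters' processing notes. The sources used here do not give versions, annotation or strand setting, so genes with exons on both strands have uncertain counts. All 66 columns were mapped to samples, 15 by a name other than the title. The 3 control columns of the HDAC3 table, named for GFP, were matched by elimination, and every comparison with those controls rests on this.

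Each table was fitted alone with edgeR 4.0.16 in R 4.3.3 (filterByExpr, minimum count 10 and total 15, TMM scaling, quasi-likelihood test, 1 mean per group, both guides weighted equally). Over 27453, 18009 and 21139 genes, genes with an adjusted p (Benjamini-Hochberg) under 0.05 were called. SE was taken as the size of the log2 fold change over the root of F, and CPM are counts per M of the TMM-scaled library. Interactions are differences between 2 contrasts, knockout minus control. Coordinates are from GENCODE 29 (GRCh38) and sequences from RefSeq. Symbols are current gene names (RBIS is C8orf59 in GENCODE 29), except AC007342.6, which is a GENCODE 29 name. Members and lists were chosen with earlier results of these data known. All members were to be named in every comparison, with up to 3 genes of the largest change per list, and 2 members (E2F1, RBL2) were set for likeness over genes with a mean log2 CPM of at least 2 (prior 0.5 CPM). The procedure was tested on simulated data in which few genes changed. That test cannot check the scaling where much of the transcriptome changed. Alternatives were DESeq2 1.42.0 size factors, its Wald test, no low-count filter, only the groups compared, each guide alone, a 2-fold minimum, a replicate block and leaving out each library. Replicate numbers were checked for pairing by correlating deviations from group means: all pairs exceeded 0.1 (0.144 to 0.334) for loss of HDAC3 in MED23 knockout cells and for no other comparison. In the HDAC3 experiment 2 of 3 pairs did for HDAC3 loss in control cells (0.0843 to 0.567) and for MED23 loss (-0.0743 to 0.49). In its interaction 9 of 12 did. For vemurafenib in MED12 knockout cells 8 of 12 pairs did (-0.179 to 0.482), and 9 of 12 matched their own number best. Some pairs exceeded 0.1 in several other comparisons as well. The variance between replicate libraries was 1.26 to 7.05 times that of Poisson sampling, so none was counted as a repeat deposit.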

Additional observations from a re-analysis of the deposited data

Results flagged for a closer look

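The effects below differed between 2 backgrounds by the interaction term of edgeR's fit (log2 scale, adjusted p under 0.05). The vemurafenib effect in MED12 knockout cells differed from that in control cells for all 10 members: E2F1 by 3.03, E2F2 by 3.32, E2F5 by 0.98, E2F8 by 0.76, RBL1 by 0.41, E2F3 by 0.36, E2F7 by 0.20, E2F4 by 0.19, RBL2 by -0.22 and RB1 by -0.38. For MED19 the same test gave 0.70 for E2F5, 0.69 for E2F2, 0.42 for E2F1, -0.52 for E2F7, -0.44 for E2F8, -0.24 for RB1, -0.15 for RBL1 and -0.09 for RBL2. The values for E2F1 and E2F2 came from guide 1 (0.91 and 1.24 alone), and guide 2 alone gave -0.06 (adjusted p = 0.81) and 0.14 (adjusted p = 0.58). With 1 guide alone, E2F8 and RBL1 (guide 1) and RBL2 (guide 2) also lost their calls. For MED23 it gave 0.97 for E2F2, 0.70 for E2F1, 0.36 for E2F5, 0.18 for E2F4, -0.15 for E2F3, -0.80 for E2F8, -0.47 for RB1, -0.41 for E2F7 and -0.09 for RBL2.

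The SOX10 effect differed between MED23 knockout and control cells for E2F8 by 0.63, E2F2 by 0.35, E2F3 by 0.18, RB1 by -0.15 and E2F7 by -0.23. The HDAC3 effect differed between the same backgrounds for E2F8 by 0.63, E2F1 by 0.60, E2F2 by 0.58, RBL1 by 0.34, E2F3 by 0.28 and RBL2 by -0.24. The calls of E2F8, RBL1 and RBL2 for MED19, RBL2 for MED23, E2F3 and RB1 for SOX10 and RBL2 for HDAC3 were each lost without at least 1 single library. RBL2 was lost without any 1 of 11 of the 18 libraries for MED19, and of 10 of the 18 for MED23. For both subunits RBL2 also lost its call with DESeq2 size factors, with no low-count filter and with only the groups compared.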

How the results depend on the processing

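Of 173 called member values, 140 kept their direction and their call in each alternative apart from the 2-fold minimum, and 33 were lost in at least 1. Of the 88 called values of 0.4 or more in size, 5 were lost, each a MED19 value with 1 guide alone, and 1 of them (E2F8, interaction) also without GFPsg_Vemu replicate 1. Under the 2-fold minimum 7 members were called for vemurafenib in control cells, 5, 5 and 6 in MED12, MED19 and MED23 knockout cells, 1, 0 and 0 for these knockouts in DMSO and 4, 0 and 1 under the drug, and 2, 0 and 0 in their interactions. In the SOX10 experiment this left 0 in each of the 4 comparisons. In the HDAC3 experiment it left 1 for HDAC3 loss, 0 for MED23 loss, 1 for HDAC3 loss in MED23 knockout cells, 0 for the double knockout and 0 for the interaction.

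With guide 2 alone, MED19 loss called 3 members in DMSO and 5 in the interaction, where E2F1 turned to -0.0579 (adjusted p = 0.81), and E2F7 under the drug turned to -0.0254 (adjusted p = 0.75). RB1 with vemurafenib in control cells, never called, was -4.51e-06 with DESeq2 size factors and -0.0283 with only the groups compared. Leaving out each library gave 3 to 7 called members for MED19 loss in DMSO, 5 to 9 for its interaction, 2 to 5 for SOX10 in control cells, 3 to 4 for the SOX10 interaction and 4 to 7 for HDAC3 loss. The 2 for SOX10 in control cells came without GFPsg_EV replicate 2 or GFPsg_SOX10OE replicate 1 or 2, and the 3 for the interaction without replicate 1 or 3 of GFPsg_EV or MED23sg1_EV or replicate 1 or 2 of GFPsg_SOX10OE. The cause was not tested. With the replicate number as a block, 1 called value was lost, E2F5 with SOX10 in MED23 knockout cells (-0.17, adjusted p = 0.052), and 3 were gained: E2F3 and E2F8 for HDAC3 loss in MED23 knockout cells, where 9 members were called, and E2F3 for MED23 loss in the HDAC3 experiment (-0.14, adjusted p = 0.0091). Depth limits E2F2 and E2F8 most, with as few as 49 and 55 counts in a treated library.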
